A study of Mus musculus with 6 samples.

Results

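The 10 genes described here, Tnf, Fasl, Tnfrsf1a, Tnfrsf1b, Fas, Tradd, Fadd, Ripk1, Traf2 and Casp8, encode the core of tumour necrosis factor (TNF) and death receptor signalling. They were chosen by name: every probe that is not a control spot and that the denser array design assigns to one of them was taken, and the sparser design was joined by probe name. All 10 were found under their current symbols, as 10 of 24702 autosomal gene names, read by 39 of the 232626 positioned probes of the denser design, of which the sparser design holds 19.

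The study profiled DNA copy number in mouse malignant mesothelioma, which grows from the mesothelium of the chest and abdomen, with array comparative genomic hybridisation: tumour and reference DNA carry different dyes and are hybridised together to probes on a slide. All 5 tumours, titled ARF-104 to ARF-129, form 1 group. Per the study's description the mice were Arf(+/-), that is, they carry a disrupted allele of Arf, the p53-stabilising protein made from Cdkn2a, and the title names asbestos as the inducing agent. The description counts 4 mice against 5 titled tumours, and how the tumours map to those mice is not given in the labels. The labels call the material primary cells, except for ARF-104, for which they give no cell type. Age, sex and strain of the mice, and the time since exposure, are not given in the sources used here. Every tumour was set against DNA of C57BL/6J mice. Normal DNA of these animals was not analysed here, so inherited and tumour differences cannot be told apart, nor can a change of copies per cell and the share of tumour cells. DNA carries no marker of cell type, so the labelled tissue was not checked.

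TNF and Fas ligand are trimeric proteins on the cell surface, and TNF is also shed from it. When TNF binds TNF receptor 1, the receptor gathers Tradd, Ripk1 and Traf2 into a complex that activates NF-kB and MAP kinases and favours survival and inflammation. When that complex is not sustained, or when Fas ligand binds Fas, the adaptor Fadd brings caspase-8 molecules together, which activate each other and start apoptosis. In mesothelioma, asbestos fibres lead to release of TNF by macrophages, and TNF with NF-kB is known to keep mesothelial cells alive after exposure. The arrays measure DNA copies of these genes and say nothing of their RNA or protein.

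Ratios are log2 of tumour over reference, and positions are mm7. In a pure diploid sample, gain of 1 copy would give 0.58 and loss of 1 copy -1. A gene's ratio is the mean over its probes after centring of the array on the median of its autosomal probes. The quantity called "gene minus chromosome" takes from this the median of all other probes on the same chromosome of the same array, and asks whether a gene stands apart from its chromosome. Values are listed by rising tumour number: ARF-104 first, then ARF-110, then ARF-112, then ARF-128, and last ARF-129. ARF-110 was read on the sparser design and the others on the denser one.

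The probes are single-stranded DNA of 47 to 60 bases, and 8 of the 39 are printed because the results turn on them. For each of 4 genes, these are a probe that stood high on the denser arrays and one that stood low or varied there. Capitals would mark AGCT or GTAC, the sites of the enzymes AluI and RsaI with which the DNA was cut before labelling (both motifs read the same on either strand). None of the 39 probes holds either motif, against 51 and 32 of all 232626 probes (0.0219% and 0.0138%), so all letters are in lower case. The strand of a probe and its exon or intron are not given in the sources used here.
Traf2, chr2:25535886-25535945: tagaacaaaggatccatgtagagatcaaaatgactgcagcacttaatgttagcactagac
Traf2, chr2:25547768-25547827: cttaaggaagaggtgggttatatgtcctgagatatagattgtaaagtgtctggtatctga
Tradd, chr8:103859184-103859230: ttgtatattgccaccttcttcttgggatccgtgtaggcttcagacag
Tradd, chr8:103861875-103861934: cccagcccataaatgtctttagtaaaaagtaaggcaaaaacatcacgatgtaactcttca
Tnfrsf1a, chr6:125378352-125378410: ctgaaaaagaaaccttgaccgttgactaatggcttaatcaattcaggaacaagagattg
Tnfrsf1a, chr6:125382495-125382554: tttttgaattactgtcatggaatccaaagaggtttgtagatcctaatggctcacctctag
Casp8, chr1:59057110-59057166: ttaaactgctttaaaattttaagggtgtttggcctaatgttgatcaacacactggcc
Casp8, chr1:59084810-59084867: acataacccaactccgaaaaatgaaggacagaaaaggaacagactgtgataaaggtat

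Noise between neighbouring probes, as an SD of log2 ratios, was 0.15 in ARF-110, 0.36 to 0.49 in ARF-104, ARF-112 and ARF-129, and 0.78 in ARF-128. The denser arrays of ARF-104, ARF-112 and ARF-129 were scanned on the same day, and ARF-110 and the denser array of ARF-128 each on another. ARF-128 was also read on the sparser design, with a noise SD of 0.43 and on the scan day of ARF-110. Cdkn2a itself stood between -3.30 and -0.14 in the 5 tumours; whether its probes lie in the part inactivated in the mice is not known.

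Tnf and Tradd were the members whose ratio differed from 0, both upwards, and no member passed the test of standing apart from its chromosome. Against 0, 2 of 10 members were called higher and 0 lower by limma at an adjusted p under 0.05, where 8.12% of the 19903 genes tested were called higher and 6.73% lower. With scan day as a random block 0 members were called (lowest limma adjusted p = 0.0919), and 3 higher and 3 lower over all genes. For gene minus chromosome, 0 of 10 members were called, where 12.7% of all genes were, 6.5% lower and 6.2% higher. Without ARF-104, without ARF-112 or without ARF-129, limma called 0 of 19903 genes in either test, with at least 2285 in each direction at an unadjusted p under 0.05. With all 5 tumours and at that unadjusted p, 3 members were higher than 0 (Tnf, Tradd and Traf2; 17.8% of all genes) and 2 lower (Fasl and Casp8; 17.2%), while 4 members were higher than their chromosome (Tnf, Tradd, Fadd and Traf2; 17.5% of all genes) and 3 lower (Fas, Fasl and Casp8; 19.5%). The median over the members was 0.09 for the ratio and -0.01 for gene minus chromosome, beside -0.01 for both over all genes tested.

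**Figure D1:**
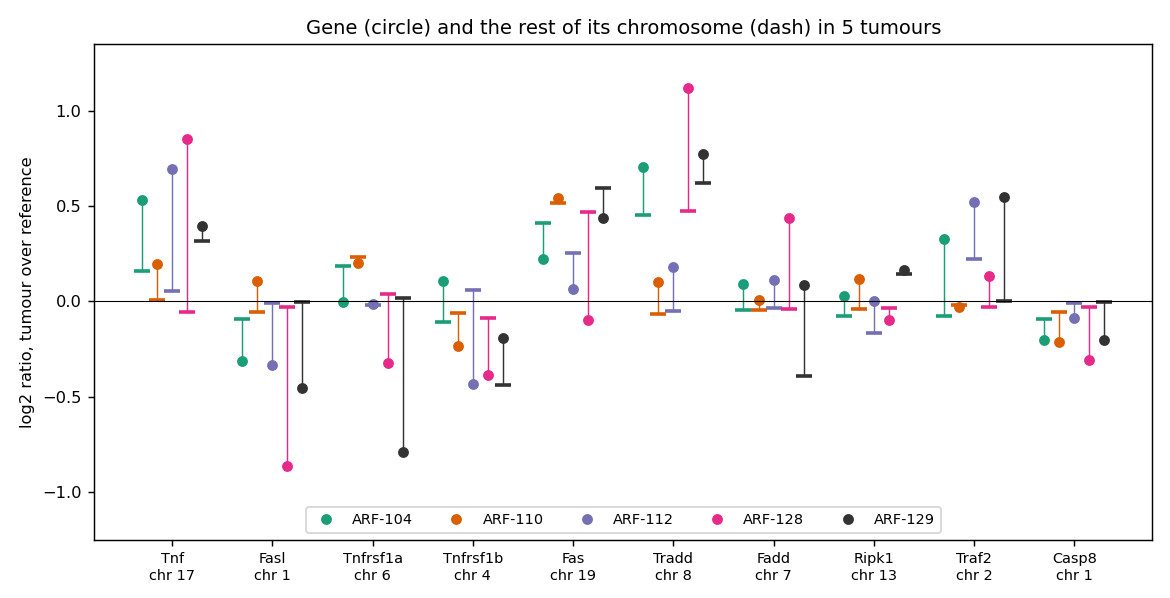
Each circle is the mean log2 ratio (vertical axis, tumour over reference) of a gene's probes in 1 tumour, and the dash joined to it is the median of all other probes on its chromosome; colours mark the 5 tumours. Tnf and Tradd lie above 0 in all 5 tumours, Fas lies near or below a raised chromosome 19, and Casp8 lies a little below 0 in every tumour.

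Of the ligands, Tnf, the cytokine that gives the pathway its name, had ratios of 0.53, 0.20, 0.70, 0.85 and 0.40. All 5 were above 0, the lowest in ARF-110 and the highest in ARF-128. The mean was 0.53 ± 0.25 (SD, n = 5), with an adjusted p of 0.0222 by limma. Tnf has a single probe, at chr17:33295682-33295741, so its value in ARF-128 carries the noise SD of 0.78 of 1 probe on that array. ARF-128's sparser array, with the same probe, gave 0.41. The call was lost with scan day as a random block (adjusted p = 0.0919), without ARF-104 (0.0811), without ARF-112 (0.0936) and without ARF-129 (0.0953).

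Set against chromosome 17, Tnf stood at 0.37, 0.19, 0.64, 0.91 and 0.08. Again all 5 were above, though ARF-129 lay close to its chromosome, which was itself raised to 0.32 in that tumour. The mean was 0.44 ± 0.34 (SD, n = 5), with an adjusted p of 0.0625 by limma, and 0.41 ± 0.38 against the probes within 2 Mb. Tnf's probe has 20 G and C bases, and probes with 20 had medians from -0.17 to -0.03 on these arrays, against 0.02 to 0.09 for probes with 23. With the median of probes of equal G and C count subtracted, Tnf minus chromosome was 0.56 and passed the test (limma adjusted p = 0.0462). In that setting 1062 of all 19903 genes were called lower and 1086 higher.

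The genes beside Tnf encode Lst1, a small leukocyte protein, and Lta, a relative of TNF that binds the same receptors. Lst1, 13512 bp before it, was higher than the chromosome by 0.72 ± 0.35 (SD, n = 5; limma adjusted p = 0.0365). Lta, 3876 bp after it, stood at 0.36 ± 0.25 (adjusted p = 0.0550). Each was read by 1 probe of the denser design. The 3 genes with at least 2 probes whose ratios over the 5 tumours lay closest to those of Tnf were AK031900 and Steap4, both on chromosome 5, and Dmpk on chromosome 7, at Euclidean distances of 0.15, 0.22 and 0.22; none is on chromosome 17.

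Fasl, the ligand of Fas on cytotoxic lymphocytes, had ratios of -0.31, 0.11, -0.34, -0.86 and -0.46. It was below 0 in 4 tumours and above in ARF-110. The mean was -0.37 ± 0.35 (SD, n = 5) and did not pass the test (limma adjusted p = 0.0880). Chromosome 1 lay between -0.09 and -0.0029 in every tumour, so gene minus chromosome was similar, -0.33 ± 0.36 (adjusted p = 0.123). The low value of ARF-128 came from its denser array: there Fasl minus chromosome was -0.83, while the sparser array of the same tumour gave 0.03. Both probes of Fasl were below chromosome 1 on all 4 denser arrays, the probe at 161749603 from -1.13 to -0.14, whereas on both sparser arrays that probe was above, at 0.16 for ARF-110 and 0.03 for ARF-128. Without ARF-110, Fasl minus chromosome had a mean of -0.46 and was called (limma adjusted p = 0.0398). In that setting 2496 of all 19903 genes were called lower and 2383 higher.

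Of the receptors, Tnfrsf1a, which encodes TNF receptor 1, a receptor with a death domain, had ratios of -0.0041, 0.20, -0.014, -0.32 and -0.79. It was close to 0 in ARF-104 and ARF-112, above it in ARF-110, and lowest in ARF-129. ARF-110 was read by 2 probes, without the low one at 125382495, and the other tumours by 3. The place of ARF-110 among them is therefore not like for like. The mean was -0.19 ± 0.39 (SD, n = 5; limma adjusted p = 0.380). Minus chromosome 6 it was -0.28 ± 0.33 (adjusted p = 0.155), with ARF-129 lowest at -0.81. A single probe made most of this: the one at 125382495 stood at -0.79, -0.66, -1.22 and -1.86 in ARF-104, ARF-112, ARF-128 and ARF-129. The probe at 125378352, whose sequence is also printed, stood on the other side, at 0.36, 0.63, 0.11 and 0.22. With only the probes that both designs share, which leaves out the low one, the mean turned to 0.15 for the ratio and 0.09 minus chromosome.

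Tnfrsf1b encodes TNF receptor 2, which has no death domain and signals through Traf2. Its ratios were 0.11, -0.23, -0.43, -0.38 and -0.19, above 0 in ARF-104 alone. The mean was -0.23 ± 0.21 (SD, n = 5; limma adjusted p = 0.155). ARF-129, in which chromosome 4 was lowered to -0.44, and ARF-104 held Tnfrsf1b above the chromosome, by 0.25 and 0.22. ARF-112 was lowest, at -0.49, with all 5 probes below chromosome 4. Gene minus chromosome averaged -0.10 ± 0.32 (adjusted p = 0.580), so its spread between tumours exceeded its mean.

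Fas, the receptor of Fas ligand, lies on chromosome 19, which was raised in every tumour, by 0.41, 0.52, 0.26, 0.47 and 0.59. Fas itself stood at 0.22, 0.54, 0.06, -0.10 and 0.44. ARF-110 was on a level with its chromosome, and the other 4 were below it. The mean ratio was 0.23 ± 0.26 (SD, n = 5; limma adjusted p = 0.180), and gene minus chromosome was -0.22 ± 0.22 (adjusted p = 0.133). The low value in ARF-128 again came from the denser array: Fas minus chromosome was -0.57 there and 0.17 on the sparser array. The probe at 34001586 was lowest on all 4 denser arrays, between -1.54 and -0.61, and near the chromosome on both sparser ones, at -0.02 for ARF-110 and 0.09 for ARF-128. The neighbours of Fas were Acta2, a smooth muscle actin, at -0.16 ± 0.18 minus chromosome, and Ch25h, a cholesterol hydroxylase, at -0.22 ± 0.37; neither passed the test (adjusted p = 0.180 and 0.272).

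**Figure D2:**
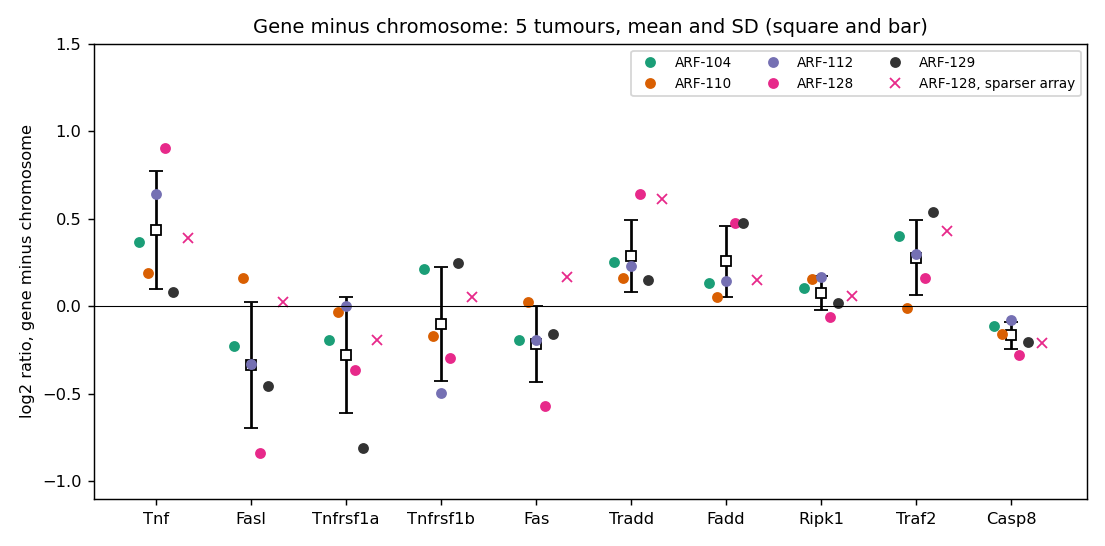
Points give the log2 ratio of each gene minus the median of its chromosome (vertical axis) in each of 5 tumours, squares and bars the mean and SD over the 5, and crosses the sparser array of ARF-128, which is not in the mean. Tnf, Tradd and Fadd lie above 0 in all 5 tumours and Casp8 below 0 in all 5, and for Fasl and Fas the cross lies above 0 while the denser array of the same tumour is the lowest point.

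Of the adaptors, Tradd, which links TNF receptor 1 to Ripk1 and Traf2, had ratios of 0.71, 0.10, 0.18, 1.12 and 0.77. All 5 were above 0, with ARF-104, ARF-128 and ARF-129 well above ARF-110 and ARF-112. The mean was 0.58 ± 0.43 (SD, n = 5; limma adjusted p = 0.0416). The same 3 tumours had a raised chromosome 8, at 0.45, 0.47 and 0.62, against -0.06 in ARF-110 and -0.05 in ARF-112. The call was lost with scan day as a random block (adjusted p = 0.137), with normexp background (0.0596), without ARF-104 (0.127), without ARF-112 (0.0895) and without ARF-129 (0.160).

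Minus chromosome 8, Tradd stood at 0.25, 0.17, 0.23, 0.64 and 0.15, again above in all 5 tumours. The mean of 0.29 ± 0.20 (SD, n = 5) did not pass the test (limma adjusted p = 0.0665), though without ARF-128 it did, at a mean of 0.20 (adjusted p = 0.0480). In that setting 1634 of all 19903 genes were called lower and 1907 higher. ARF-128's sparser array gave a mean of 0.61 from 3 probes, against 0.64 from 4 probes on the denser one. The single probes were less alike than these means. Of the 3 shared probes, those at 103857198 and 103859184 stood higher on the sparser array of ARF-128. The one at 103857507 stood higher on its denser array. The closeness of the 2 means is therefore not like for like. The flanking genes were near chromosome 8, C76566 at -0.08 ± 0.13 and Fbxl8 at -0.08 ± 0.23 (adjusted p = 0.394 and 0.561 by limma). The genes whose ratios lay closest to those of Tradd, at distances of 0.16 to 0.20, were Map1lc3b, AK077166 and AK052636, all on chromosome 8. Members higher than their chromosome in all 5 tumours were Tnf, Tradd and Fadd, 3 of 10, where 16.2% of all genes were; Casp8 alone was lower in all 5, where 18.4% were.

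Fadd, the adaptor that recruits caspase-8, was read by 1 probe at chr7:141005064-141005123. Its ratios were 0.09, 0.01, 0.11, 0.44 and 0.09. ARF-128 stood apart from the other 4, and its sparser array gave 0.15. The mean was 0.15 ± 0.17 (SD, n = 5; limma adjusted p = 0.302). Minus chromosome 7 the values were 0.14, 0.05, 0.15, 0.47 and 0.48. In ARF-129 chromosome 7 stood at -0.39 and the gene at 0.09. The mean of 0.26 ± 0.20 did not pass the test (adjusted p = 0.0840), and against the probes within 2 Mb it was 0.16 ± 0.21.

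Ripk1, the kinase at the branch between NF-kB activation and cell death, was the member closest to its reference level. Its ratios were 0.03, 0.12, 0.0011, -0.10 and 0.16, with a mean of 0.04 ± 0.10 (SD, n = 5; limma adjusted p = 0.752). Minus chromosome 13 the mean was 0.08 ± 0.10 (adjusted p = 0.387). It was above chromosome 13 in 4 tumours and below it, by -0.06, in ARF-128. Its probes spread more widely: in ARF-104, ARF-112 and ARF-129 the probe at 33438947 stood at 0.43, 0.59 and 0.23 while the next one, at 33445619, stood at -0.23, -0.34 and -0.64.

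Traf2, an adaptor with a RING domain that recruits the ubiquitin ligases of the TNF receptor complex, had ratios of 0.32, -0.03, 0.52, 0.13 and 0.55. ARF-110 was at its reference level and the other 4 above it. The mean of 0.30 ± 0.25 (SD, n = 5) did not pass the test (limma adjusted p = 0.0948). Minus chromosome 2 the values were 0.40, -0.01, 0.30, 0.16 and 0.54, and their mean of 0.28 ± 0.21 did not pass it either (adjusted p = 0.0761). Without ARF-110 that difference was called, at a mean of 0.35 (adjusted p = 0.0337), and with the sparser array of ARF-128, which gave 0.43, it was also called (0.0265). More genes were called in both settings than with the main data. Without ARF-110, 2496 of all 19903 genes were called lower and 2383 higher. With the sparser array, 2428 and 2804 of 19901 were.

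A single Traf2 probe, the first sequence printed, stood higher than the other 5. At 25535886 it was 0.88, 0.88, 1.12 and 1.20 above chromosome 2 in ARF-104, ARF-112, ARF-128 and ARF-129, and 1.17 on the sparser array of ARF-128, but 0.12 in ARF-110. The second sequence, from 25547768, has the same 23 G and C bases and stood at 0.29, 0.16, -1.15 and 0.49 on the denser arrays. On the sparser arrays it was at 0.04 in ARF-128 and -0.32 in ARF-110. The gene before Traf2, Fbxw5, an F-box protein read by 1 probe, was higher by 0.99 ± 0.40 (limma adjusted p = 0.0365), and the gene after it, Edf1, was at -0.03 ± 0.28.

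Casp8, the initiator protease of the death receptors, had ratios of -0.20, -0.21, -0.09, -0.31 and -0.20. All 5 were below 0 and, as gene means, they lay closer together than those of any other member. ARF-110 was read by 2 probes and the denser arrays by 6, so its closeness to them is not like for like. At the shared probe at 59057110, ARF-110 stood at -0.26 minus chromosome 1, against -1.11 to -0.59 on the denser arrays. At the other, at 59095459, it stood at -0.05 against -1.33 to -0.13. The mean of -0.20 ± 0.08 (SD, n = 5) did not pass the test (limma adjusted p = 0.124), nor did the mean minus chromosome 1 of -0.17 ± 0.08 (adjusted p = 0.0918). A loss of 1 copy in every cell would give -1, so the values are a fraction of that. The sparser array of ARF-128 gave -0.21 minus chromosome from 2 probes, against -0.28 from 6 probes on the denser one, so the 2 means are not like for like.

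The Casp8 mean was made of probes on both sides of the chromosome. At 59057110, in the first Casp8 sequence printed, the values were -0.69, -0.61, -0.59 and -1.11 in ARF-104, ARF-112, ARF-128 and ARF-129, and on the sparser arrays -0.60 in ARF-128 and -0.26 in ARF-110. At 59084810, in the second, they were 0.62, 0.51, 1.33 and 0.85. With only the 2 probes that both designs share, which leaves out the second and 3 others, Casp8 minus chromosome was -0.48 (limma adjusted p = 0.0267). In that setting 2489 of 19899 genes were called lower and 2168 higher. Of the 2 shared Casp8 probes, the one at 59095459 stood at -0.13, -0.30, -1.33 and -0.24 in ARF-104, ARF-112, ARF-128 and ARF-129. On the sparser arrays that probe stood at 0.18 in ARF-128 and -0.05 in ARF-110. The neighbours of Casp8 were also below chromosome 1: BC023121, with 1 probe, at -0.59 ± 0.33 (adjusted p = 0.0390), and Trak2, a motor adaptor for mitochondria with 7 probes, at -0.30 ± 0.20 (adjusted p = 0.0597).

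**Figure D3:**
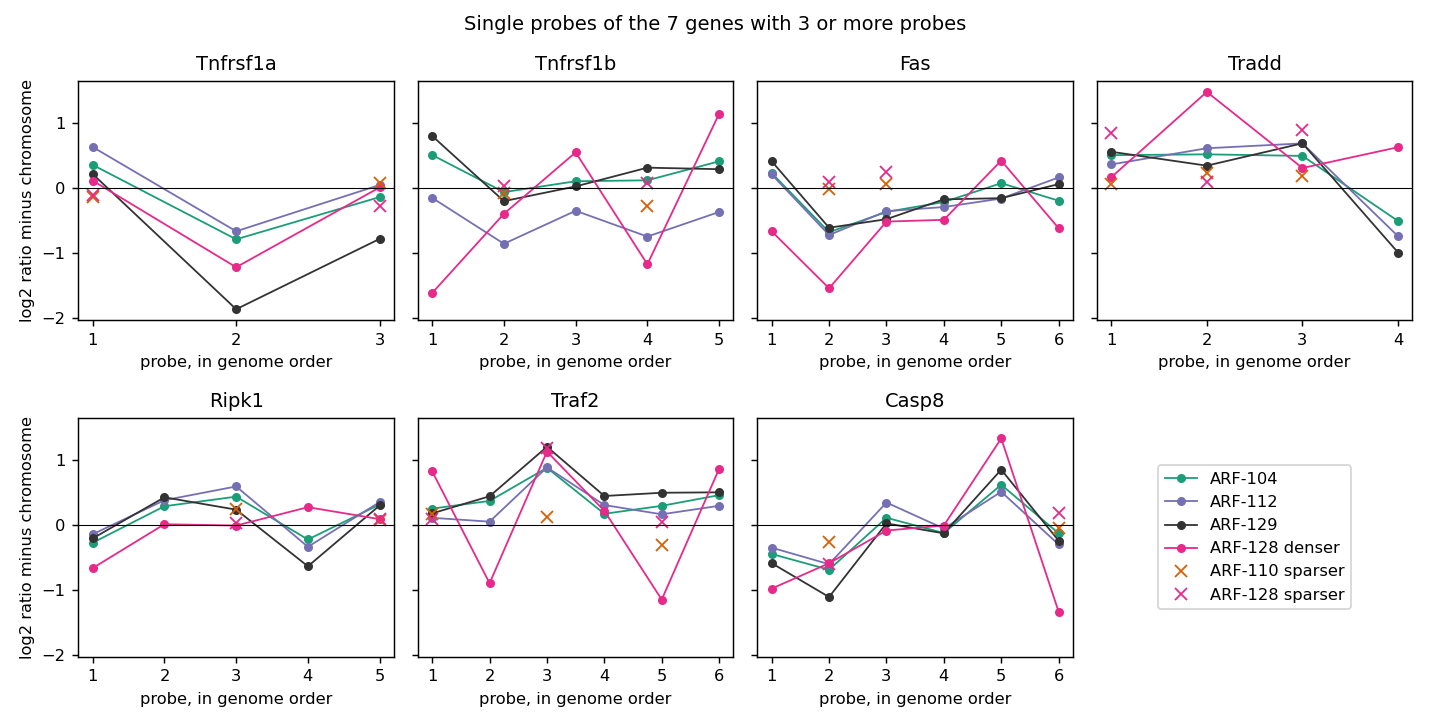
Each panel shows 1 gene, with its probes in genome order (horizontal axis) and each probe's log2 ratio minus the chromosome median (vertical axis); lines join the probes of a denser array and crosses are the sparser arrays of ARF-110 and ARF-128. The lines of ARF-104, ARF-112 and ARF-129 have a like shape in most panels, though in Tnfrsf1b that of ARF-112 lies lower at every probe. ARF-128 departs from them at single probes of Tnfrsf1b, Fas, Tradd, Ripk1, Traf2 and Casp8.

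Single probes of a gene could stand on opposite sides of the chromosome, and many kept their side on the denser arrays, among the members about as often as among all genes. Of the 39 member probes, 13 were above their chromosome on all 4 denser arrays and 12 below on all 4, together 64.1%, beside 59.5% of the probes of all genes tested (29.5% above and 30% below). Of the 8 members with 2 or more probes, 3 held probes of both kinds: Tnfrsf1a, Ripk1 and Casp8. The share of all genes that hold both kinds was not counted, so this number has no background beside it. In Tradd, the probe at 103859184 was above chromosome 8 on every denser array, at 0.49, 0.69, 0.31 and 0.69 in ARF-104, ARF-112, ARF-128 and ARF-129. The probe at 103861875 in the same gene was at -0.51, -0.74, 0.63 and -0.99, so that ARF-128 alone was above. Leaving that denser-design probe out, Tradd minus chromosome was 0.51 (limma adjusted p = 0.0247). In that setting, with shared probes only, 2489 of 19899 genes were called lower and 2168 higher.

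The spread between the probes of a gene, taken on probe means over the 4 denser arrays, exceeded the spread of the gene's mean between tumours in 6 of the 8 members with 2 or more probes. The exceptions were Fasl and Tnfrsf1b. The ratio of the SDs was 6.40 in Casp8, 3.099 in Ripk1, 2.46 in Traf2, 2.26 in Tradd, 2.13 in Tnfrsf1a and 1.82 in Fas. Over all 14334 genes with 2 or more probes, the ratio had a median of 2.86 and exceeded 1 in 87.5%, beside a median of 2.20 over the 8 members.

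To follow the probe pattern between arrays, each probe's value was taken minus the mean of its gene, and arrays were correlated over the 37 probes of those 8 genes. Pearson's r was 0.93 between ARF-104 and ARF-112, 0.95 between ARF-104 and ARF-129 and 0.92 between ARF-112 and ARF-129, the 3 tumours scanned on the same day. It was 0.43, 0.41 and 0.27 between these and the denser array of ARF-128. The 2 arrays of ARF-128 gave 0.05 over the 16 shared probes of 7 genes. The sparser array of ARF-128 gave 0.75, 0.66 and 0.77 with ARF-104, ARF-112 and ARF-129, which differ from it in tumour, design and scan day, and 0.26 with ARF-110, of the same design and scan day. ARF-110 gave 0.21, 0.24 and -0.07 with those 3 tumours and 0.69 with the denser array of ARF-128. Over all genes the pairs among the 3, those with the denser array of ARF-128, and both arrays of ARF-128 gave 0.88 to 0.90, 0.60 to 0.68, and 0.37. Over all genes the 2 sparser arrays gave 0.55, while ARF-110 gave 0.15 to 0.37 with the denser arrays. The sparser array of ARF-128 gave 0.61 to 0.69 with ARF-104, ARF-112 and ARF-129 over all genes. Over the member probes, a shared scan day thus went with a high correlation among the 3 denser arrays but not between the 2 sparser ones. Over all genes the 2 sparser arrays correlated more than ARF-110 did with any denser array. These correlations are descriptions over probes, which share arrays, genes and base composition and are not replicates.

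**Figure D4:**
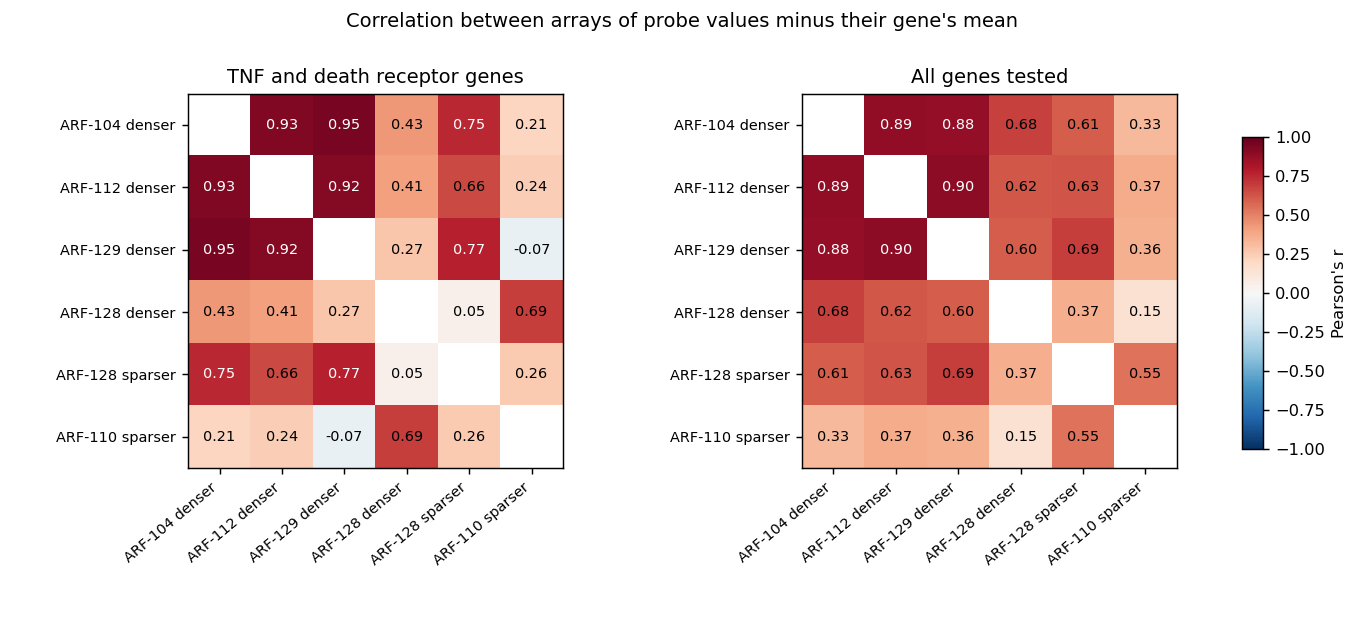
Each cell gives Pearson's r between 2 arrays of probe values minus their gene's mean, for the TNF and death receptor genes (left) and all genes tested (right); the colour runs from blue at -1 to red at 1. The darkest cells, 0.92 to 0.95 on the left and 0.88 to 0.90 on the right, are the pairs among ARF-104, ARF-112 and ARF-129, and the pair of both ARF-128 arrays is pale at 0.05 on the left.

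The gene means also went with scan day. Among the 5 arrays tested, ARF-110 was alone on its day and alone on the sparser design. ARF-128, with the highest noise, was alone on another day. Only ARF-104, ARF-112 and ARF-129 shared a day, so scan day, design and noise cannot be told apart here. The correlation between tumours of the same scan day, estimated over all genes, was 0.77 for gene minus chromosome and 0.42 for the ratio. When scan day was entered as a random block, 0 of 19903 genes were called by limma minus chromosome, though 1752 lower and 1411 higher genes had an unadjusted p under 0.05. Against 0 it called 3 genes lower and 3 higher, and no member was among them. Of the members, Tradd had the lowest adjusted p for gene minus chromosome in that fit (0.296). The 3 tumours scanned together, tested alone in an alternative chosen after seeing the data, gave means minus chromosome of 0.41 for Traf2 (adjusted p = 0.00817), 0.21 for Tradd (0.0253), -0.33 for Fasl (0.0131) and -0.18 for Fas (0.0320). These were the 4 of 10 members called in that setting, where 43.2% of all genes were. The other scan day with more than 1 tumour holds the sparser arrays of ARF-110 and ARF-128 and was not tested on its own. The part of scan day in these values was not tested beyond this.

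Of a wider list of 44 genes of the pathway (other ligands and receptors, the Bcl-2 family, caspases, kinases and ubiquitin ligases), 36 had a probe and 34 were tested. For gene minus chromosome, 3 of 34 were called higher (Cycs, Daxx and Mcl1) and 0 lower, where 6.2% and 6.5% of all genes were. At an unadjusted p under 0.05, 9 were higher and 5 lower (17.5% and 19.5% of all genes). Against 0, 3 were called higher (Cycs, Daxx and Sharpin; 8.12% of all genes) and 1 lower (Tnfsf10; 6.73%). With scan day as a random block none of these was called in the test that had called it (limma adjusted p from 0.0636 to 0.295). The list's medians were 0.03 for both quantities, beside -0.01 over all genes tested.

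Cycs, cytochrome c, which activates caspase-9 once released from mitochondria, stood at 0.94, 0.09, 0.61, 1.16 and 0.82 minus chromosome 6, lowest in ARF-110. Its mean was 0.72 ± 0.40 (SD, n = 5; limma adjusted p = 0.0377), though cytochrome c has many processed copies in the genome, so which copy its probes read is uncertain. Daxx, a Fas-binding protein and histone chaperone on chromosome 17 as is Tnf, stood at 0.55, 0.07, 0.73, 0.65 and 0.61, with a mean of 0.52 ± 0.26 (adjusted p = 0.0372). Mcl1, a Bcl-2 relative that protects from apoptosis, had a mean of 0.31 ± 0.17 (adjusted p = 0.0476), with all 5 tumours above chromosome 3. As for Tnf and Traf2, the value in ARF-110, the tumour read on the sparser design, was the lowest or next to lowest of the 5 for Cycs and Daxx, whereas for Mcl1 it was the next to highest, at 0.34.

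Sharpin, a subunit of the linear ubiquitin ligase complex, had the largest mean ratio of the list, 0.96 ± 0.32 (SD, n = 5; limma adjusted p = 0.0123), from 0.54 in ARF-110 to 1.37 in ARF-128. Minus chromosome 15 its mean was 0.59 ± 0.48 and did not pass the test (adjusted p = 0.0642). Tnfsf10, which encodes TRAIL, a death ligand related to Fas ligand, had a mean ratio of -0.45 ± 0.30 (adjusted p = 0.0435) and was below 0 in all 5 tumours, from -0.91 in ARF-128 to -0.18 in ARF-110. Minus chromosome 3 it was -0.38 ± 0.31 (adjusted p = 0.0724). Cycs was read by 2 probes, Daxx, Mcl1 and Sharpin by 1 each and Tnfsf10 by 4.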

How the data were processed

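DNA of 5 tumours was read on 6 two-colour Agilent arrays, with Cy5 on tumour and Cy3 on reference DNA and no dye swap, per the labels. The authors' processed intensity of both channels comes from Agilent Feature Extraction (8.5.1.1, 9.1.3.1 or 9.5.3.1, per the file headers). The deposited value table holds ratios of the same arrays in log10 for the sparser design (43020 spots that are no controls) and in log2 for the denser one (238202), with column medians of 0.0015 to 0.051, and was used as an alternative. Its scale was found by setting each column against its array.

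From the processed intensities, log2 red over green was computed. Controls and outlier-flagged spots were dropped, repeated spots averaged and arrays centred, with no loess or quantile step. ARF-128 was represented by its denser array, titled ARF-128PlusMinus, an addition the sources used here do not explain. Positions come from that file's header (mm7) and were used for 41845 probe names common to both designs. For the sparser design the sources used here give no build. Gene names are those of the files, and 81 names on several chromosomes were left out.

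Genes with a value in all 5 tumours were tested with limma 3.58.1 (an intercept, eBayes, two-sided, Benjamini-Hochberg over 19903 genes), a test that leaves out the reference's own spread. Each numbered tumour was assumed to come from its own animal, although the study's description counts 4 mice. Tumours that share an animal would not be independent samples. The p-values measure the spread between these samples. Under an exact sign-flip permutation test, 5 tumours cannot go below p = 0.0625, so none was run. On simulated data of gene minus chromosome, 49% of shifts of 0.5 and 82% of shifts of 1 were recovered among 19903 genes, with 7 unchanged genes called. The simulated noise was independent between tumours and equal in all 5. It left out the correlation of 0.77 between tumours of the same scan day and the unequal noise of the arrays. These figures therefore do not give the recovery or the false calls of the real data. Array number limits the precision. Scripts ran in Python 3.11.15 (pandas 2.3.3, numpy 2.4.6, matplotlib 3.10.9) and R 4.3.3 (statmod 1.5.0).

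The members, the wider list and the tests were chosen with earlier results of these data known. Named genes are the 10 members, the nearest gene with probes on each side, the 3 genes closest in ratio to a called member, and called genes of the wider list; single probes were singled out after their values were seen. Alternatives were background, ratio source, outlier flags, dim probes, array of ARF-128, shared probes, gene summary, genes in at least 4 tumours, probe G and C count, scan day, array weights, flanking baseline, centring and each tumour left out.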

Additional observations from a re-analysis of the deposited data

Results flagged for a closer look

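Among 20 groups of 5 values (10 genes, each as a ratio and minus chromosome), 2 held a value far from the other 4, both on the denser array of ARF-128. Chance gives about 1 in 20 groups for independent values of equal spread. Each gene gave 2 related groups and the arrays differed in noise, so that rate does not hold here. For Tradd minus chromosome, ARF-128 stood at 0.64 against 0.15 to 0.25 in the other 4, a gap of 0.79 of the whole range where 0.71 is the critical value. Its sparser array gave a mean of 0.61, though the shared probes differed between its 2 arrays. For the ratio of Fadd, ARF-128 stood at 0.44 against 0.01 to 0.11, a gap of 0.76 of the range, and its sparser array gave 0.15. The probe noise SD of the denser array of ARF-128 was 0.78, and Fadd has 1 probe.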

How the results depend on the processing

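Over all genes minus chromosome, limma called 1293 lower and 1233 higher; counts moved with array weights (4740 and 5059), the mean of both ARF-128 arrays (3001 and 3006), its sparser array (2428 and 2804), shared probes (2489 and 2168), genes in at least 4 tumours (2236 and 2156), 1 scan day only (3977 and 4619) and the scan day block (0 and 0). Normexp gave 282 lower and 1008 higher, and flanks of 2 Mb 1963 lower. Leaving out 1 tumour gave 0 to 2496 lower and 0 to 2383 higher (0 when ARF-104, ARF-112 or ARF-129 was dropped). Against 0, the counts of 1340 lower and 1616 higher moved with array weights (4189 and 4717), both ARF-128 arrays (2528 and 2908), the sparser array (2234 and 2953), 1 scan day only (2462 and 3328), normexp (178 and 988), the scan day block (3 and 3) and shared probes (2341 lower). No centring gave 1169 and 2025. Leaving out 1 tumour gave 0 to 2007 lower and 0 to 2273 higher.

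Members minus chromosome, 0 in either direction, became 4 higher and 3 lower with array weights, 3 and 2 with shared probes and 2 and 2 on 1 scan day. They became 3 higher with either other use of the ARF-128 arrays, 2 with the median of probes or normexp and 1 with G and C count subtracted. Leaving out 1 tumour gave 0 to 1 in each direction. Of all 19903 genes, array weights called 4740 lower and 5059 higher, the median of probes 1091 and 1084, and G and C count subtracted 1062 and 1086. With shared probes 2489 lower and 2168 higher of 19899 genes were called. Members against 0, 2 higher and 0 lower, became 4 and 2 with array weights and 4 higher with the sparser array or the mean of both. They became 3 higher with the median of probes, 3 higher and 1 lower on 1 scan day, and 2 and 2 with shared probes. Normexp gave 1 higher and the scan day block 0. With 1 tumour left out, 0 to 3 were higher and 0 to 1 lower. Signs turned for Tnfrsf1a with shared probes (0.087 minus chromosome, 0.15 against 0) and with normexp (0.032 against 0), and for Fas with shared probes (-0.049 against 0). For these changes the cause was not tested. The other members kept their direction under all alternatives run, and the deposited table, dim probes left out and outlier spots kept changed no member's call. No paired analysis was possible because the tumours form a single group. The noise of the arrays limits what single probes show, most of all on the denser array of ARF-128.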
